A study of Mus musculus with 2 samples.

Results

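The 575 regions described here are H3K79me2 peaks of bone-marrow-derived macrophages that share no base with any protein-coding gene record of the mouse annotation GENCODE M21. They were found among the 15559 peaks of the replicated list on chromosomes 1 to 19 and X of the mm10 genome, of which they make up 3.70%. They were chosen by the called peak positions, so their position outside coding genes is the rule and no finding. The nearest excluded peaks had 1 bp in Fbxl18 (fold 3.69), 14 bp in Mcmdc2 (fold 9.13) and 19 bp in Cks2 (fold 2.69). The nearest included peaks directly adjoined Oas1c (fold 15.5) and Psph (fold 12.4) or lay 10 bp from Ogfr (fold 6.03).

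The study profiled H3K79me2 by chromatin immunoprecipitation sequencing in macrophages grown from bone marrow of C57BL/6J mice. All samples form 1 group of 2 biological replicates, and the cells received no stimulation. Each library was made from 10 ng of DNA, and the labels name the same control experiment and the same donor record for both. The labels give neither sex nor age. Each replicate has a biosample record of its own, but the labels do not say whether they came from separate animals or cultures. Their differences may therefore be technical or biological, and those on the sex chromosomes are given below. There is no treated or other control group, so no test between conditions was possible and every value is a description.

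Dimethylation of histone H3 at lysine 79 is laid down by the methyltransferase DOT1L, which travels with the elongating RNA polymerase II machinery. In mammalian cells the mark is typical of transcribed genes, where it begins shortly after the start and declines along the body. Long non-coding RNA genes and the primary transcripts of many microRNAs are also made by RNA polymerase II, so the same mark can lie outside protein-coding genes.

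Only peaks were deposited in the lists, without reads per region, which leaves library depth unknown. Replicate 1's own list held 22960 peaks on these chromosomes and replicate 2's held 31576, and 653 (2.84%) and 1513 (4.79%) of them had no base in a coding gene. The replicates also differed on the sex chromosomes. Replicate 2's list covered 14685 bp of Xist, the RNA gene that silences one X chromosome in female cells, at a fold of 23.5, and held 1 peak on chromosome Y. Replicate 1's list covered 0 bp of Xist and held 19 peaks on chromosome Y. Whether the replicates differed in sex was not tested. Leaving out chromosome X removed 12 of the 575 regions. All 10 macrophage marker genes examined, Csf1r and Adgre1 among them, had bases under the replicated list, and none of the 17 markers of T cells, B cells, neutrophils, fibroblasts and hepatocytes had any.

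The regions held 22 microRNA gene records, 1.00% of the 2196 annotated, and 19 of these have an entry in the RefSeq tables (GRCm38.p6, the build whose coordinates mm10 shares). Mature sequences from the 5 clusters with named family members are shown because these were the microRNA genes that H3K79me2 reached outside coding genes. Capitals mark the seed, bases 2 to 8 counted from the 5′ end, which pairs with target messages. The let-7 members below share 1 seed, as do miR-15a and miR-16, miR-17 and miR-20a, and miR-19a and miR-19b.
mmu-let-7a-5p: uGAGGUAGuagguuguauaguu
mmu-let-7f-5p: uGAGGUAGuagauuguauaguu
mmu-let-7d-5p: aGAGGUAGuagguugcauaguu
mmu-miR-15a-5p: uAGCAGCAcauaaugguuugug
mmu-miR-16-5p: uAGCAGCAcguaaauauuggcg
mmu-miR-17-5p: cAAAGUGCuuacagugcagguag
mmu-miR-20a-5p: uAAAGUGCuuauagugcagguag
mmu-miR-18a-5p: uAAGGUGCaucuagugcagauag
mmu-miR-19a-3p: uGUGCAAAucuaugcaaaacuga
mmu-miR-19b-3p: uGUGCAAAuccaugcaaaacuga
mmu-miR-92a-3p: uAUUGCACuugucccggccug
mmu-miR-23a-3p: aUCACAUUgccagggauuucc
mmu-miR-27a-3p: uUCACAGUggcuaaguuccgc
mmu-miR-24-3p: uGGCUCAGuucagcaggaacag
mmu-miR-142a-5p: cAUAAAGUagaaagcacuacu
mmu-miR-142a-3p: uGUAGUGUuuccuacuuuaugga

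The highest microRNA peak, and the second highest of all 575 regions, spanned the let-7 cluster at chr13:48534803-48545729, with a fold of 30.3 over the control. The fold is the authors' value for a peak and is used here only to rank and describe peaks within the list. Its 10927 bp covered the whole hairpins of Mirlet7d, Mirlet7f-1 and Mirlet7a-1, whose products restrain proliferation in many cell types, and lay in the long non-coding RNA record 6720427I07Rik. Replicate 1's own list held 10411 bp of it and replicate 2's held all 10927 bp. Next came the cluster of Mir23a, Mir27a and Mir24-2 at chr8:84204378-84210091, with a fold of 20.8, of which 4537 bp lay in replicate 1's list and 5714 bp in replicate 2's. Mir3074-2, annotated on the opposite strand over Mir24-2, fell under the same peak.

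Mir15a and Mir16-1 lie within the long non-coding RNA gene Dleu2, and the products of this pair act against cell cycle and survival genes. Both hairpins were covered by a peak of 17207 bp at chr14:61630951-61648157 with a fold of 16.4 (16201 bp in replicate 1 and 17194 bp in replicate 2). Mir142 and Mir142b are overlapping records on opposite strands, and miR-142 is a microRNA of blood cells. The peak at chr11:87755538-87757980 had a fold of 9.94 and covered all 1694 bp of the host record Mir142hg in both replicates.

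The Mir17 to Mir92-1 cluster, known for promoting proliferation, had the lowest fold of these 5, at 5.31. Its peak at chr14:115042373-115044622 covered all 6 hairpins in the replicated list and in replicate 2, whereas replicate 1's list reached Mir19a and Mir20a and had no base in Mir17, Mir18, Mir19b-1 or Mir92-1. The other microRNA records under these peaks were Mir6516 in Snhg20 (fold 12.6), Mir3069 in Snhg10 (fold 11.0), Gm24111 in the let-7 peak, Gm22118 in a peak of Zswim6 (fold 18.2) and Gm27598 in a peak of Slfn10-ps (fold 10.1). Gm27598 had no base in replicate 1's list.

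Several microRNA genes known from myeloid cells had no covered base. Of 30 such records in a list made for this work, 13 had a base under one of the regions and 2 more, Mir22 and Mir21a, lay under peaks in coding genes. Mir155 and Mir146, both induced in activated macrophages, and Mir221 and Mir222 had none in any replicate's list. The hairpin of Mir223, a microRNA of the granulocyte and monocyte lineage, also had none. It lies inside the long non-coding RNA record F630028O10Rik, on the same strand. A peak of fold 4.69 covered 72.5% of that record (1103 bp in replicate 1's list and 2652 bp in replicate 2's) and ended 105 bp from the hairpin. None of 27 microRNA records known from other tissues, such as Mir122 of liver and Mir124a-1 of neurons, had a base in the replicated list or either replicate's own list. The share over all microRNA records was 1.00%, so a count of 0 in 27 is near the background. Both lists were made with earlier results of these data known, and hairpins of 1 cluster share a transcript.

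Long non-coding RNA records made up the largest class in the replicated list. Of the 575 regions, 335 (58.3%) had a base in such a record, which takes precedence in the classes used here. By the replicates' own lists that share was 62.3% in replicate 1 and 39.7% in replicate 2, and it was 43.7% in the pooled list. A further 28 of the 575 regions had a base in a pseudogene, 11 in a record whose transcript is still to be experimentally verified (type TEC) and 3 in a small RNA record only. None touched any of the 494 immunoglobulin or T cell receptor segments, and 198 (34.4%) touched no gene record at all. That last share depended on the list: it was 32.5% in replicate 1's own list, 53.7% in replicate 2's and 49.96% in the pooled list. In replicate 2's own list and in the pooled list it was above the share in long non-coding RNA records. Without precedence, 32 regions touched a small RNA record and 35 a pseudogene. Most records of each class were untouched: the regions had a base in 185 of 9603 long non-coding RNA records (1.93%) and in 45 of 3872 small RNA records other than microRNAs (1.16%). Of the latter, 25 were small nucleolar RNA genes, which guide chemical modification of other RNAs.

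**Figure D1:**
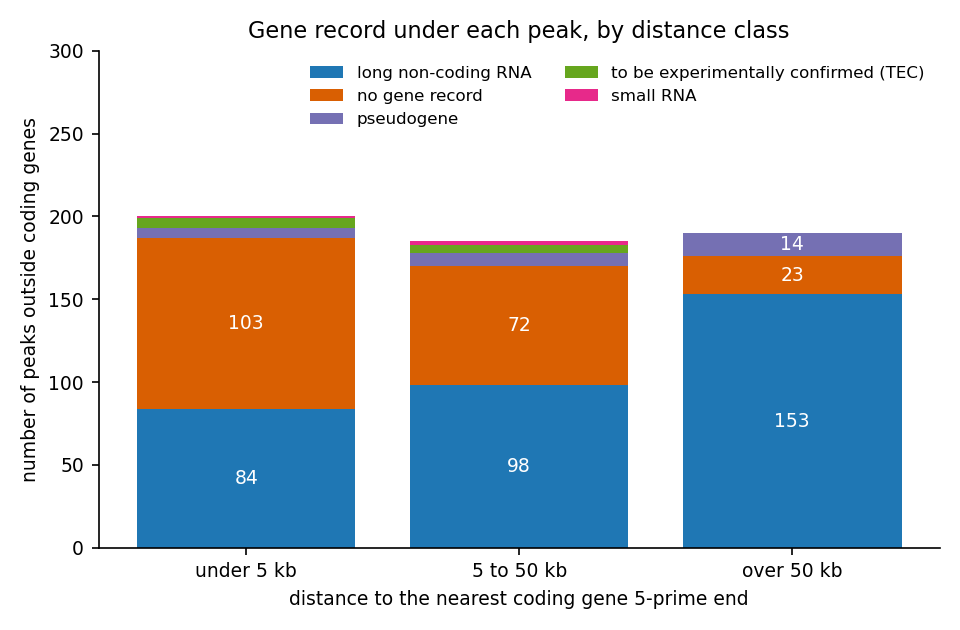
Number of the 575 regions (y axis) in each class of distance to the nearest coding gene 5′ end (x axis), coloured by the gene record they touch. Long non-coding RNA records account for 153 of the 190 regions over 50 kb away, and regions in no record for 103 of the 200 under 5 kb away.

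Distance to coding genes and gene class went together. Of the 575 regions, 200 (34.8%) lay under 5 kb from the outermost 5′ end of a coding gene, 185 lay 5 to 50 kb away and 190 (33.0%) lay farther. The 335 regions in long non-coding RNA records split into 84, 98 and 153 over these classes, whereas the 198 in no record split into 103, 72 and 23. These counts are weighted by a few long genes that hold many peaks. Joined by a shared gene record or a gap under 10 kb, the regions formed 342 loci, of which 259 held 1 peak and 13 held 5 or more. Those 13 contributed 156 regions, and the largest, at Mir99ahg, held 37. With 1 region per locus the share over 50 kb fell to 16.1% and the share under 5 kb rose to 52.6%. The share in long non-coding RNA records was then 47.4%, and the share in no record 44.4%. The share of a chromosome's peaks that lay outside coding genes ran from 1.42% on chromosome 9 to 8.54% on chromosome 16, which carries Mir99ahg.

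The regions were narrower and lower than peaks in coding genes. Their median width was 1818 bp (quartiles 1048 to 3392 bp), against 3574 bp (1769 to 7402 bp) for the 14984 peaks with a base in a coding gene. A wider peak is more likely to reach a coding gene, so the narrower width is partly set by the rule. Regions chosen in the same way from the replicates' own lists had medians of 955 and 974 bp, against 1304.5 and 1429.5 bp over all peaks of those lists. The median fold was 5.38 (quartiles 3.85 to 8.18), against 7.46 (4.52 to 14.04). Some were as broad as coding-gene peaks: 82 were 5 kb or wider, and 70 of these lay in long non-coding RNA records and 7 in no record. The wide regions had a median fold of 12.2, the 358 of 1 to 5 kb had 5.53 and the 135 under 1 kb had 3.35.

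**Figure D2:**
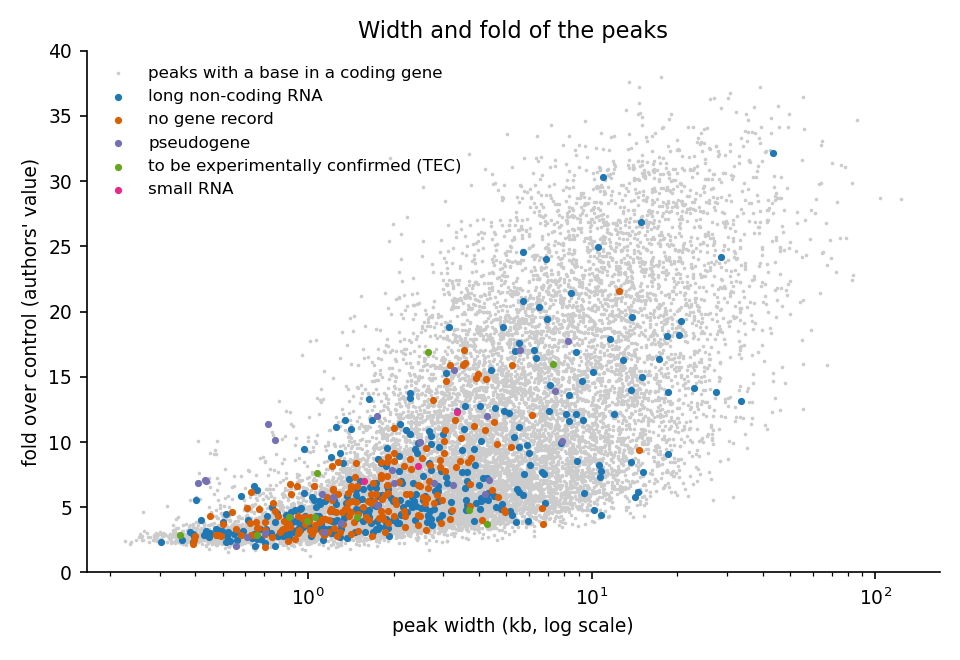
Width (x axis, kb on a log scale) and the authors' fold over control (y axis) of every peak of the replicated list. Grey points are the 14984 peaks in coding genes and coloured points the 575 regions by gene record, of which the widest and highest is the 43500 bp peak of Lncpint at a fold of 32.2.

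The highest and widest region of all covered the 3′ part of Lncpint, a p53-induced long non-coding RNA. It spanned 43500 bp at chr6:31082053-31125552 with a fold of 32.2, and 42438 bp of it lay in replicate 1's list and all 43500 bp in replicate 2's. In all, 8 regions covered 109888 bp (79.7%) of the record, from 0.178 kb after its outermost 5′ end onward (73721 bp in replicate 1 and 123578 bp in replicate 2). In Dleu2, whose locus is often deleted in human leukaemia, 5 regions covered 48877 bp (61.5%) and the first began 1.23 kb from the 5′ end at a fold of 26.9. The replicates were close to each other at Dleu2, with 46912 bp and 50166 bp.

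**Figure D3:**
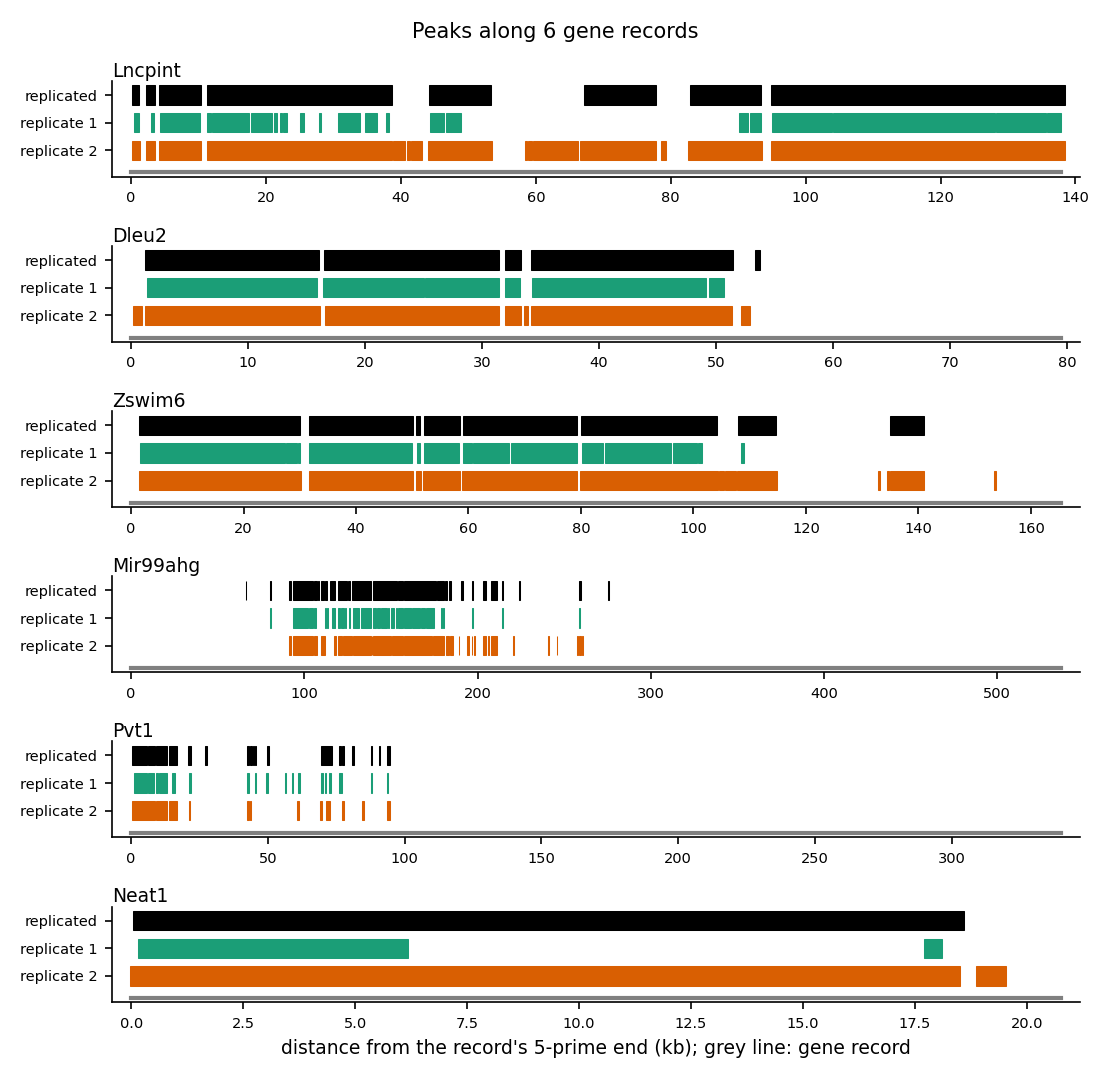
Peaks along 6 gene records, with distance from the record's outermost 5′ end in kb on the x axis and the full record as a grey line, in the replicated list and in each replicate's own list. The coverage of Dleu2 and Zswim6 is nearly continuous from close to the 5′ end in both replicates, that of Mir99ahg starts at 66.1 kb in the replicated list, 80.2 kb in replicate 1 and 91.3 kb in replicate 2, and that of Neat1 is broad in replicate 2 and partial in replicate 1. A RefSeq promoter of Mir99ahg lies inside the record, between regions that end at 92.496 kb and begin at 93.388 kb.

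Mir99ahg, the host gene of Mir99a, Mirlet7c-1 and Mir125b-2, was the most fragmented. Its 37 regions covered 89905 bp (16.7%) of a record 537.1 kb long and lay between 66.1 and 275.6 kb from the outermost 5′ end, at folds up to 12.4. Peaks of replicate 1's own list lay between 80.2 and 259.1 kb, and those of replicate 2's between 91.3 and 260.9 kb. None of the 3 microRNA hairpins of Mir99ahg had a base under a peak of the replicated list or of either replicate. Those hairpins lie 363 to 410 kb from the 5′ end, past the last region. Pvt1, the long non-coding neighbour of Myc, held 21 regions over 28902 bp (8.50%), with the highest fold, 7.54, in the first of them at 0.246 kb. Replicate 1's list held 19928 bp of Pvt1 and replicate 2's held 22498 bp, and farther along the gene several regions lay in the list of only 1 replicate or of neither.

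Coverage of the nuclear RNA genes was uneven. Malat1, an abundant RNA of nuclear speckles, had 6926 bp (99.2%) under 1 peak with a fold of 19.4 (6562 bp in replicate 1 and 6401 bp in replicate 2). Neat1, the scaffold of paraspeckles, had 18553 bp (89.3%) under 1 peak with a fold of 13.8. Here the replicates differed, with 6425 bp in replicate 1 and 19175 bp in replicate 2. Tug1, a conserved nuclear long non-coding RNA, had 5714 bp (57.8%) under a region with a fold of 24.5 that lay 562 bp from the start of Morc2a (4525 bp of it in replicate 1 and 5666 bp in replicate 2).

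Of 19 nuclear and architectural RNA genes listed, 9 had a base under one of the regions and 3 more lay under peaks in coding genes, against 1.93% of all long non-coding RNA records, and the other 7 had no base in the replicated list. The list was made with earlier results of these data known. Jpx, an activator of Xist, had 3626 bp covered in the replicated list, 0 bp in replicate 1's own list and 5859 bp in replicate 2's. Ftx, another gene of the X inactivation centre, had 4590 bp, 2943 bp and 4584 bp. The difference at Jpx stands beside the Xist and Y values given above, and the part of sex in it was not tested. H19 and Meg3, both imprinted RNA genes, had no base in the replicated list or either replicate's own list.

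Small nucleolar RNA host genes were the list with the largest share. Their long RNAs carry such RNAs in introns, and 11 of 18 listed genes had a base under one of the regions, against 1.93% of all long non-coding RNA records. A further 3 lay under peaks in coding genes. These genes were listed with earlier results of these data known. The 18 include Rmrp, which RefSeq types as RNase MRP RNA and not as a long non-coding RNA. It had no covered base and also counts among the structural RNA records below. Snhg15 had 3063 bp (96.6%) covered at a fold of 15.3, in both replicates (2879 and 3032 bp). Snhg20 had 2116 bp at a fold of 12.6 and Snhg10 had 1428 bp at 11.0. Gas5, a growth-arrest gene, had 1471 bp (35.7%) at a fold of 5.95, with 880 bp in replicate 1 and 1603 bp in replicate 2. Snhg18 and Snhg14 had no base in the replicated list or either replicate's own list.

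Of 18 listed immune and macrophage RNA records, 3 (16.7%) had a base under one of the regions, against 1.93% of all long non-coding RNA records, and Dnmt3aos lay under a peak in a coding gene. This list, too, was made with earlier results of these data known. Of the 3, the largest was Gm14005, which RefSeq names Morrbid, a mouse RNA gene that controls the lifespan of short-lived myeloid cells. Its 5 regions covered 50524 bp at folds up to 13.99. The replicates were far apart at this gene, with 11900 bp in replicate 1 and 59193 bp in replicate 2. F630028O10Rik had 2689 bp covered (1103 and 2652 bp in the replicates), and Trp53cor1, a p53 target, had 429 bp that lay in neither replicate's own list. Mir155hg, Ptgs2os2 and Gm20186 had no base in the replicated list or either replicate's own list. None of 21 long RNA records of the brain and the Hox clusters, such as Hotair, Miat and Rmst, had a base under the replicated list. With 1.93% of all long non-coding RNA records touched, a count of 0 in a list of this size is near the background, and replicate 2's own list reached Hotairm1 (1411 bp) and Peg13 (687 bp). None of 15 structural RNA records, such as Rn7sk and Terc, had a base in the replicated list or either replicate's, against 1.16% of small RNA records other than microRNAs, which is likewise near the background.

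**Figure D4:**
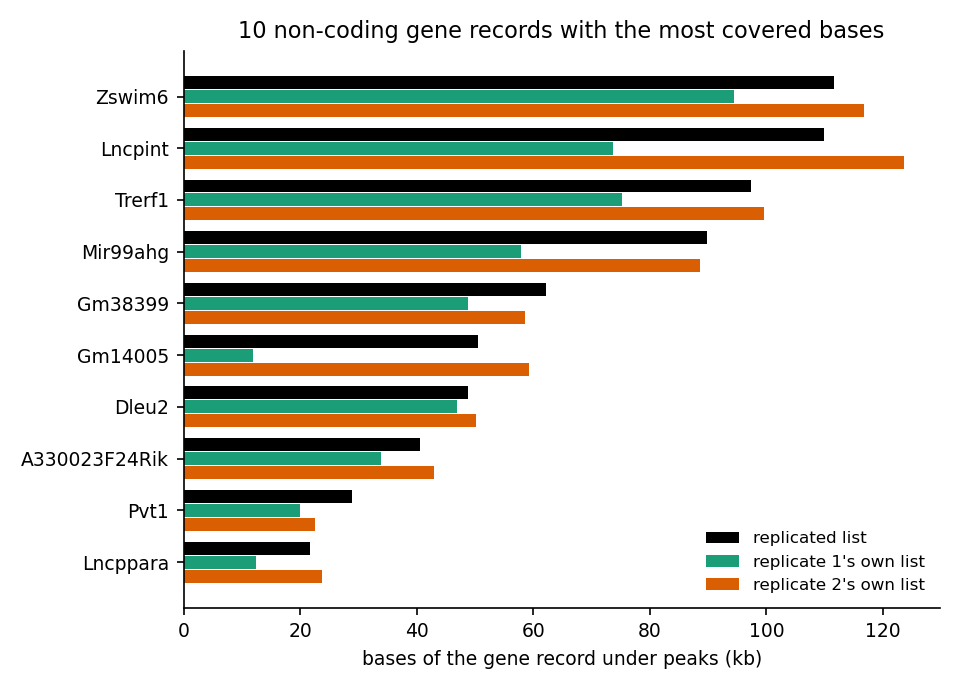
Bases under peaks (x axis, kb) for the 10 non-coding gene records with the most bases under the 575 regions, in the replicated list and in each replicate's own list. Replicate 1 has fewer covered bases than replicate 2 at each of the 10 genes, with the widest ratio at Gm14005 (11900 against 59193 bp).

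Some regions lay outside coding genes only by this annotation. GENCODE M21 lists Zswim6 and Trerf1 as processed transcripts, and RefSeq lists both as coding genes. Both were among the 3 records with the most covered bases, with 111596 bp (67.5%) under 9 regions of Zswim6, a zinc finger gene, and 97373 bp (44.0%) under 18 regions of the transcription regulator gene Trerf1. Another 22 regions, with 62167 bp in the record Gm38399, lay in the RefSeq gene Nav1, the neuron navigator gene 1. In all, 133 regions had a base in a RefSeq coding gene, 269 in another RefSeq gene only and 173 in none. Without those 133, the other 442 regions had 57.5% in long non-coding RNA records, close to the 58.3% of all, and 32.8% over 50 kb from a coding start.

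Genes of interferon-induced families held the highest folds of the pseudogene class. Mx2, whose human counterpart encodes an antiviral GTPase, is annotated as a polymorphic pseudogene and had 8231 bp covered at a fold of 17.8 (5714 bp in replicate 1 and 12198 bp in replicate 2). Oas1b, a member of the oligoadenylate synthetase family, had 3147 bp covered at a fold of 15.5, and its peak adjoined Oas1c. Gm12250, which RefSeq lists as coding, had all 1274 bp covered by a peak with a fold of 17.1. Replicate 1's list held 2698 bp of that peak's 5590 bp but none of the gene. Gpr137b-ps held 8 regions and 12199 bp at folds up to 13.9. H2-K2, a class I histocompatibility pseudogene, had 1973 bp covered at a fold of 7.87, in replicate 2's list (2234 bp) and not in replicate 1's. Pseudogenes can share reads with near-identical copies, and the sources used here do not say how the authors treated such reads, so these values are uncertain. Of the 11 TEC regions the highest were at Gm37352 (fold 16.9) and Gm34220 (fold 16.0), the latter 720 bp from Yy1, the gene of a transcription factor. The 3 small RNA regions were at Gm22101 (fold 12.3), at Snora43 and Snora17 (fold 8.12), which RefSeq places in Snhg7, and at Gm24480 (fold 7.04).

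Of the 200 regions under 5 kb from a coding start, 197 were upstream, a split that the rule sets, since a region downstream of a start must lie past the end of a short gene. Of the 197, 144 were under 1 kb away. Their median distance was 467 bp. The term marked is used for genes with 200 bp or more of the first 3 kb under the replicated list, and 30.6% of the 21755 coding genes were. The nearest coding gene was marked for 168 (84.0%) of the 200, for 96 (51.9%) of the regions 5 to 50 kb away and for 93 (48.9%) of those beyond. Over all 575 it was marked for 357 (62.1%). Neighbouring regions share a nearest gene, so these shares are not over independent genes.

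Of these 200, 84 also lay in a long non-coding RNA record. For 72 of the 84 (85.7%) such records ran only on the opposite strand to the coding gene, for 5 on both strands and for 7 only on the same strand. Such pairs are common in the annotation: of 742 long non-coding RNA records that share no coding base and start under 5 kb from a coding start, 665 (89.6%) run on the opposite strand. Gm21781 was the highest, in a peak of 10477 bp and fold 24.96 that began 176 bp from the zinc finger gene Zbtb2 (9474 bp in replicate 1 and 10477 bp in replicate 2). 5031425E22Rik had a peak of 13842 bp and fold 19.6 at 1632 bp from Kmt2e, a gene of the MLL family (13728 and 13838 bp). 3110056K07Rik had 6880 bp at fold 24.0 at 719 bp from Arid4a, in a region that RefSeq assigns to Arid4a as well.

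The other large group, 103 regions under 5 kb from a coding start and in no gene record, lay beside 97 different genes, and the nearest gene was marked for 92 of them. Examples follow that were chosen after their values were seen. Upstream of Ctsd, the gene of the protease cathepsin D, regions lay 84 and 2553 bp away at folds of 11.1 and 8.79, and another lay beyond the 5 kb limit at 6763 bp with a fold of 10.9. The peak 71 bp from Psap, the gene of the lysosomal precursor prosaposin, had a fold of 11.7, with 328 bp in replicate 1 and 3301 bp in replicate 2. The peak 68 bp from Ctsb, the gene of cathepsin B, had a fold of 8.46 (844 and 1899 bp). That 149 bp from Mpeg1, the gene of the pore-forming protein perforin-2, had a fold of 8.24 (1752 and 2690 bp). Grn, the gene of progranulin, had 2 such peaks, at 64 bp (fold 6.03) and 1407 bp (fold 9.55).

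Fewer regions lay at the 3′ ends of coding genes. Of those under 5 kb from any coding gene edge, 191 were nearest to a 5′ edge, and 162 of these adjoined a marked gene. The other 55 were nearest to a 3′ edge, and for 20 of them the gene had a covered base in its last 1 kb, a state that 4.38% of all coding genes showed. In all, 99 regions lay under 1 kb from a peak in a coding gene, and 224 lay over 50 kb from any.

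Outside both annotations, 125 regions had no base in any GENCODE or RefSeq gene. Of these, 65 lay under 5 kb from a coding start, 50 lay 5 to 50 kb away and 10 lay farther, and 97 had a marked nearest gene. Replicate 1's list had a base in 69 of them and replicate 2's in 123. The highest, 404 bp upstream of the chromatin remodelling gene Bicra, had a fold of 17.1 over 3549 bp (3007 bp in replicate 1 and 3549 bp in replicate 2). Farthest out among the high ones, a peak of 5246 bp at chr10:111104854-111110099 lay 54653 bp upstream of the lipid transfer gene Osbpl8, with a fold of 15.9 (3616 and 5246 bp). It was the outermost of 7 regions with Osbpl8 as their nearest coding start, which together spanned 1223 to 54653 bp from that start and held 17996 bp. The highest region in no GENCODE record, with a fold of 21.6 over 12451 bp at chr7:106512002-106524452, lay 156132 bp from the olfactory receptor gene Olfr693 and touched the RefSeq record Gm8995. To show the sequence under the peaks of this class, 200 bases around the summit, the position of highest signal that the authors give, follow for the regions near Osbpl8 and Bicra, from GRCm38.p6 plus strand at chr10:111107221-111107420 and chr7:16048578-16048777. Capitals mark CpG dinucleotides, of which they hold 2 and 9.
Summit near Osbpl8: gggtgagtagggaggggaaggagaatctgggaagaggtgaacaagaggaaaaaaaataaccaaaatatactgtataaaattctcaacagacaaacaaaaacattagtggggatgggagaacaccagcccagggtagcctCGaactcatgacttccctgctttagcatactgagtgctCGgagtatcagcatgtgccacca
Summit near Bicra: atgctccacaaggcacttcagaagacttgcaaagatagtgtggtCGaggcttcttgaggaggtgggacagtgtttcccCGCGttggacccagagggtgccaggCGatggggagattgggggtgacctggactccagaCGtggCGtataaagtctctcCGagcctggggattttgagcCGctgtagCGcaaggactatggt

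CpG-rich stretches were less frequent in the regions than in peaks as a whole. A window of 500 bp with at least 50% GC and an observed to expected CpG ratio of 0.6 or more was found in 42 regions (7.30%), against 18.1% of all peaks of the list. By the replicates' own lists the share in the regions was 2.76% and 5.95%. The rule leaves out every peak that reaches a coding gene's 5′ end, while such peaks stay in the comparison. The lower share may therefore be partly set by the rule, which was not tested. Peaks with a higher fold held such windows more often in both sets. The list's fold was cut into 4 bins with about equal numbers of all peaks, bounded at 4.44, 7.37 and 13.8. From low to high these held 207, 201, 116 and 51 of the regions. The shares were 1.45%, 4.98%, 17.2% and 17.7% in the regions and 1.75%, 9.05%, 22.1% and 40.1% in peaks of coding genes. A wider peak also holds more windows, and the regions were narrower. By width, under 1 kb, 1 to 5 kb and 5 kb or more, the shares were 1.48%, 8.10% and 13.4% in the regions. In peaks of coding genes they were 3.55%, 15.2% and 27.6%. The regions in long non-coding RNA records had 9.55% and those in no record 3.54%. Median GC content was 44.1% and 43.8%, and the median share of repeat-masked bases was 23.4% and 22.7%, in the regions and in coding-gene peaks.

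Promoters of long non-coding RNA genes under the regions spanned a range of CpG content. Of the long RNA records under the regions, 101 have a promoter in the RefSeq table, taken as the 300 bases from 250 before to 50 after the start. With the CpG-richest promoter used for each gene, their median was 16 CpGs. Over all 32619 promoters on these chromosomes, each counted singly, the median was 7. Using the richest promoter can raise the median for genes with several. Promoters were matched by gene name, and records that RefSeq lists as coding, such as Zswim6 and Trerf1, were not left out. These medians are therefore not directly comparable. The promoters of 4 genes described above are shown for their range of CpG number, 5′ to 3′ on the gene's strand, with CpGs in capitals. Dleu2 (chr14:61682324-61682623, minus strand) has 29, a number that 13.0% of all promoters reach. Lncpint (chr6:31218425-31218724, minus strand) has 18 (29.9%), Malat1 (chr19:5802623-5802922, minus strand) has 10 (43.8%) and Mir99ahg (chr16:77329078-77329377, plus strand) has 8 (48.9%). The peaks lay beside rather than over these windows: the regions covered 17 of the 300 bases at Malat1 and none at the others, where the nearest region lay 177 bp (Lncpint), 265 bp (Mir99ahg) and 1177 bp (Dleu2) away. The promoters shown for Lncpint and Mir99ahg lie inside the GENCODE records, downstream of the outermost 5′ ends used above.
Dleu2 promoter: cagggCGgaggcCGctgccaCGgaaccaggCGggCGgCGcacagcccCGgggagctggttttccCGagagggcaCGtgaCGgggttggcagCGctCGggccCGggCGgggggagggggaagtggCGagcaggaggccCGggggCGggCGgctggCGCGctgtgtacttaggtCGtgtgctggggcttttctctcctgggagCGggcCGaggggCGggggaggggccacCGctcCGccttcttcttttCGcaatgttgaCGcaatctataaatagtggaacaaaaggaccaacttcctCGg
Lncpint promoter: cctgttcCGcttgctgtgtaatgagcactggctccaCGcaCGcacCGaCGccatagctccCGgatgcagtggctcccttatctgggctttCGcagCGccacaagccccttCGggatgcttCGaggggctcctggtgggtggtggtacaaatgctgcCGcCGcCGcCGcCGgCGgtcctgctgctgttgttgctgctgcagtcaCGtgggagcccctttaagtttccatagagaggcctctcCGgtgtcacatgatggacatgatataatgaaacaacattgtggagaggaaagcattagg
Malat1 promoter: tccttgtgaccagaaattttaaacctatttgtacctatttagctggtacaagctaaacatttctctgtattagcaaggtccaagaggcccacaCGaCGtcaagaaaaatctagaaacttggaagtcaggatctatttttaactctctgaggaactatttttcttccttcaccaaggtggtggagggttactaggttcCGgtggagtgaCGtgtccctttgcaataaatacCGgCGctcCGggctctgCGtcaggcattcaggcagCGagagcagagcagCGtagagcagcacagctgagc
Mir99ahg promoter: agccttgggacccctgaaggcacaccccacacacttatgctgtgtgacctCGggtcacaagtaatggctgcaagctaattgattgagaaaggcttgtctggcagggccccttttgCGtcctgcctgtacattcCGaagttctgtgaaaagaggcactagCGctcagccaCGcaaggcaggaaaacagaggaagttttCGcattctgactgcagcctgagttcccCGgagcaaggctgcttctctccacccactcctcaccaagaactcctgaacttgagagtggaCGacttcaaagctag

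Along long non-coding RNA genes coverage was highest shortly after the 5′ end. Of 5482 long non-coding RNA records that share no base with a coding gene, 132 (2.41%) had a covered base and 120 (2.19%) were marked in their first 3 kb. By the replicates' own lists 105 and 190 were marked. The 120 include records that RefSeq lists as coding, such as Zswim6 and Trerf1. In these 120 records, 20.6% of the last 500 bp before the 5′ end were covered, 56.2% of the first 500 bp after it and 83.7% of the bases from 1000 to 1500 bp, the highest value. In the 6658 marked coding genes the same bins had 8.48%, 34.2% and 89.1%, and the highest was 90.2% from 1500 to 2000 bp. By 4500 to 5000 bp coverage was 46.3% in the 70 long RNA records of that length and 65.1% in the 6028 coding genes. The first 3 kb chose the marked genes, so the rise there is partly set by the rule. Of the 335 regions in long non-coding RNA records, 174 had a base in the first 3 kb of one and 56 held an annotated transcript 5′ end.

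**Figure D5:**
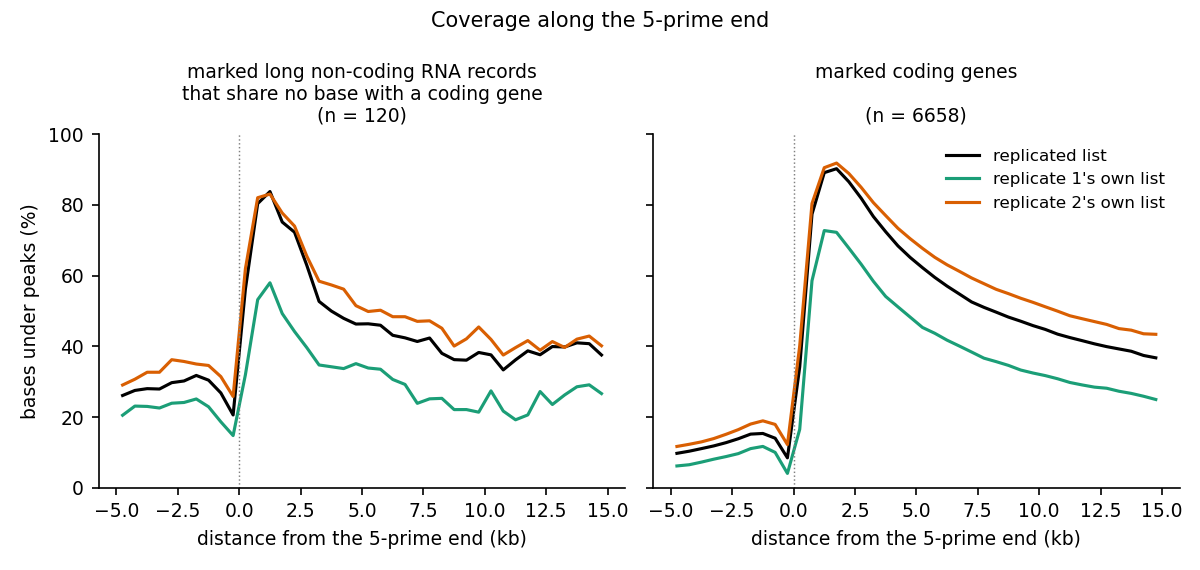
Share of bases under peaks (y axis, %) in 500 bp bins from 5 kb before to 15 kb after the outermost 5′ end (x axis, kb), for 120 marked long non-coding RNA records that share no base with a coding gene and for 6658 marked coding genes, in the replicated list and each replicate's own list (bins after the start use the genes long enough to hold them). In the replicated list coverage is lowest in the last 500 bp before the start and highest 1 to 2 kb after it in both sets, and replicate 1 lies below replicate 2 throughout.

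Replicate 1 reached fewer of the regions than replicate 2. Replicate 1's own list had a base in 391 of the 575 (68.0%, against 75.6% of all peaks of the list) and replicate 2's in 541 (94.1%, against 96.5%). Both lists had a base in 379 (65.9%, against 74.7%), 162 were reached by replicate 2 alone, 12 by replicate 1 alone and 22 by neither. The median share of a region's bases was 44.4% in replicate 1 and 99.8% in replicate 2. The lower share of replicate 1 went with the lower folds. In the same bins of fold, from low to high, replicate 1 reached 37.2%, 75.1%, 96.6% and 100% of the regions and 28.5%, 74.7%, 97.9% and 99.9% of coding-gene peaks. By class, replicate 1 reached 73.4% of the regions in long non-coding RNA records and 59.1% of those in no record. The replicated list was made from both replicates, so these shares are not independent of it.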

How the data were processed

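H3K79me2 ChIP-seq peaks of 2 replicates were analysed. The deposited text notes describe 4 narrowPeak lists on mm10, namely 1 of each replicate's own peaks, 1 of both replicates pooled and the replicated list used here. The sources used here give no aligner, peak caller or threshold, and do not state how a peak entered the replicated list. The fold over control and the −log10 q of a peak and its summit offset (another value, in bp) are the authors' deposited values. The deposited score, a display value of at most 1000, was not used. No region had a q over 0.05. Each list was set against GENCODE M21 and RefSeq (GRCm38.p6) with Python 3.11.15, numpy 2.4.6 and pandas 2.3.3. Peaks counted as shared at 1 bp or more. The interval code was tested on simulated data. The regions and gene lists were chosen with earlier results of these data known. Regions and genes were named as the 10 highest and 10 widest regions, the 10 non-coding records with most bases, the 3 highest regions of each gene class and distance class, up to 10 list genes with a base and 5 without, microRNA records by fold and the 3 peaks on each side of the rule's edge. Not all of these are printed, and genes named beyond the rule were chosen after their values were seen. Alternatives changed the list, thresholds, gene edges, merging and CpG rule. Depth is unknown, so no interval that needs it is given.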

Additional observations from a re-analysis of the deposited data

How the results depend on the processing

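The 575 regions became 1193 with the pooled list, between 653 and 1513 with a single replicate's own list, 167 when only peaks at or above the list's median fold were used, 329 when coding genes were extended by 5 kb at both ends, and 342 when peaks closer than 1 kb were merged. The last 3 lower the number by their construction. Leaving out chromosome X moved no value beyond the spread between the replicates. The share in long non-coding RNA records was 43.67% with the pooled list and 39.66% to 62.33% by single replicates. The share in no record was 49.96% with the pooled list and 32.47% to 53.73% by single replicates, and the cause was not tested. The share under 5 kb from a coding start was 12.59% and 0% when coding genes were extended by 1 kb and 5 kb, and the share over 50 kb was 45.28% and 56.53%, as the extension removes near regions. The median width was 3665 bp at or above the median fold, 1891 bp with a −log10 q of at least 5, 1064 bp in the pooled list, 955 to 974 bp by single replicates, 2049 and 2053 bp with the extensions and 2564 bp with merging. The share reached by both replicates was 97.6% at or above the median fold and 43.65% when at least 50% of the region had to be shared. It was not recomputed for the pooled and single-replicate lists. The nearest coding gene was marked for 60.64% to 72.24% by single replicates and for 49.85% with the 5 kb extension. The share with a CpG-rich window was 17.37% at or above the median fold, 4.694% in the pooled list, 2.757% to 5.948% by single replicates, 10.23% with merging and 1.565% under a stricter CpG rule. Another 2 settings were chosen after seeing the data. With 1 region per locus, 342 regions remained in number, with 52.63% under 5 kb, 16.08% over 50 kb, 69.88% reached by both replicates, a median of 1900 bp and 10.82% with a CpG-rich window. Without RefSeq coding genes the median width was 1739 bp. No paired analysis was possible because there is 1 group. Without read counts, peaks missing from a replicate cannot be told from peaks below its detection limit.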
